A study of Mus musculus with 89 samples.

Results

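Whole lung RNA from allergen-treated C57BL/6 mice that breathed ozone was compared with that from allergen-treated C57BL/6 mice that breathed air. The samples were chosen by their titles: 10 of the 89 arrays of the series belong here, 6 from ozone-exposed and 4 from air-exposed animals. All were male C57BL/6 wild-type mice aged 7 to 8 weeks. Both groups had been sensitized to the allergen Af by injection into the peritoneum on days 0 and 7 and challenged with it through the nose on day 13. Both were then exposed for 2 h, one group to 3 ppm ozone and the other to air. They were killed 12 h after that exposure, which was 168 h after the challenge. The lungs were perfused and the left lobe was used, so an array holds the RNA of every cell type left in the lobe. The series also holds SP-D-/- mice, which lack surfactant protein D, and BALB/c mice under the same exposures, and C57BL/6 mice given ozone or air without Af.

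Ozone is an oxidant gas that reacts with the lining of the airways and alveoli. Cells answer oxidants in part through the transcription factor NRF2, which switches on glutathione and detoxification genes. In the airways, secretory and goblet cells make the mucins and defence proteins of the mucus layer, and allergen exposure expands the goblet cells. Alveolar macrophages clear particles and surfactant, and plasma cells, which differentiate from B cells, secrete antibodies made of heavy and light chains.

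The lung identity of both groups was clear from the array signals, given throughout as deposited log2 values. Sftpc, the surfactant protein of alveolar type 2 cells, measured 12.67 ± 0.06 (SD, n = 4) with air and 12.66 ± 0.29 (SD, n = 6) with ozone. Scgb1a1, the main secretory protein of club cells, measured 12.93 ± 0.25 (SD, n = 4) and 13.03 ± 0.33 (SD, n = 6). The arrays were less alike in technical quality. The spike level, here the mean signal of 18 probe sets for control RNAs added to every sample, was 9.92, 9.99, 10.79 and 11.03 on air arrays 2, 3, 4 and 6. On ozone arrays 1 to 6 it was 9.90, 10.72, 10.13, 11.62, 12.07 and 11.85, so ozone arrays 4, 5 and 6 lay above every air array. The groups differed by 0.62 in the mean (two-sided exact permutation test, p = 0.286). The 3′ signal of beta-actin was 8.75 on ozone array 5 and 10.14 on ozone array 6 and between 11.31 and 12.15 on the other 8 arrays.

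The arrays also fell into sets by replicate number. Across genes, deviations from the group mean correlated at 0.101 to 0.587 between an air and an ozone array when both were numbered 1 to 3 or both 4 to 6, and at -0.449 to -0.196 otherwise. No label says what a number stands for. Results are therefore given for all 10 arrays and, where they depend on it, for the sets numbered 1 to 3 (air 2 and 3, ozone 1, 2 and 3) and 4 to 6 (air 4 and 6, ozone 4, 5 and 6). Fits without ozone arrays 4, 5 and 6 keep every air array. They set ozone arrays 1 to 3 against air arrays of both sets. The part of RNA quality in the differences below was not tested. Across the 15065 genes tested, the ozone minus air difference correlated at r = 0.721 with the slope of each gene on spike level within groups. These points share arrays, and genes are not independent replicates.

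With all 10 arrays, limma called 9 genes, which is 0.0597% of the 15065 tested, at an adjusted p under 0.05. The gene that rose was Rnf11 (0.00664% of genes tested) and the 8 that fell (0.0531%) were Igkv14-111, Igk-V21, Igkv1-135, Kmt2d, Dtx3, Napg, Klhl24 and Slc7a1. A much larger number lay below an unadjusted p of 0.05: 923 genes were higher (6.13%) and 1473 lower (9.78%) with ozone. With spike level as a covariate these numbers were 626 (4.16%) and 795 (5.28%), and without ozone arrays 4, 5 and 6 they were 181 (1.2%) and 158 (1.05%). The set numbered 4 to 6 alone called 529 genes that rose (3.51%) and 1121 that fell (7.44%). The set numbered 1 to 3 alone gave none, with 45 genes higher (0.299%) and 25 lower (0.166%) at an unadjusted p under 0.05 in limma. The difference in ozone response between the sets was itself called for 1 gene, Gars (0.00664%), and reached an unadjusted p under 0.05 for 1656 genes (11%). Pairing arrays by number, with the number as a block, called 52 genes, of which 17 rose (0.113%) and 35 fell (0.232%). The 9 genes above were all among them. Ozone arrays 1 and 5 have no air partner and take no part in that estimate. With no block, leaving out ozone array 1 gave 141 genes that rose and 338 that fell, and leaving out ozone array 5 gave 0 and 1. The part of the missing arrays in the block calls was not tested. The fit behind the 9 calls takes its spread from all 18 groups. With only the 2 groups fitted, limma called none. SDs with ozone and air were 1.54 and 0.38 for Napg, 1.22 and 0.45 for Kmt2d, and 1.05 and 0.16 for Klhl24. Slc7a1 and Rnf11 also varied more with ozone. Dtx3, Igkv14-111, Igk-V21 and Igkv1-135 varied more with air. The part of unequal spread in the calls was not tested.

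The steepest declines that passed the test were in antibody light chain genes. Igkv14-111, a variable segment of the kappa light chain, had log2 signals of 6.17, 6.97, 7.90 and 8.32 on air arrays 2, 3, 4 and 6. On the 6 ozone arrays it ranged from 3.73 to 4.74 with a median of 4.41. Every ozone array lay below every air array, by more than 1 log2 unit at the nearest pair. The difference was -2.99 ± 0.41 (SE), a 7.96-fold lower signal, with an adjusted p of 4.74e-06 in limma. Over the alternatives other than the single number sets this adjusted p ran from 8.45e-07 to 0.177.

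Igk-V21, another kappa variable gene, measured 6.36, 6.05, 9.16 and 8.07 with air. The ozone arrays lay between 3.59 and 5.14 with a median of 4.21, again without overlap. It fell by 3.02 ± 0.63 on the log2 scale (limma, adjusted p = 0.0227). Igkv1-135 measured 5.70, 5.96, 7.62 and 7.96 with air and 3.29 to 5.69, median 4.35, with ozone, where the ranges nearly met. It fell by 2.37 ± 0.49 on the log2 scale (limma, adjusted p = 0.0227). In all 3 genes the air arrays numbered 4 and 6 were the highest, and the decline was larger in the set numbered 4 to 6 than in the set numbered 1 to 3. For Igkv14-111 it was -4.02 (limma, adjusted p = 8.19e-06) against -1.96 (unadjusted p = 0.00101). The difference between the sets had an adjusted p of 0.376 in limma.

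Jchain, which joins antibody units into the secreted polymers, had the most negative difference of all genes tested without passing the test. It measured 8.26, 9.76, 10.84 and 11.71 with air and 4.30 to 8.95, median 6.72, with ozone. Its groups overlapped, and its difference was -3.61 ± 0.84 (limma, adjusted p = 0.0699). Among all 26 probe sets for immunoglobulin genes and Jchain, a set chosen after their values were seen, 18 were lower with ozone. Over all genes tested, 7189 of 15065 were above 0. The 26 were not filtered by level, and some were low, such as Igkv1-117 at 2.37 with air and 2.44 with ozone. Of the 26, 4 showed no overlap of the groups, where 0.943% of all genes tested were lower without overlap. That share is over filtered genes with 1 probe set each, so it is not a like measure. The 4 all belong to Igk-V21, Igkv14-111 and Igkv1-135, the genes called above, and Igk-V21 holds more than 1 of them. Variable segments are close in sequence, and a probe set may bind RNA of more than one of them.

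Values of the B and plasma cell list were mixed. Of the 15 tested genes of the B and plasma cell list, 3 were lower and 1 higher at an unadjusted p under 0.05, where 9.78% and 6.13% of all genes were, and none passed the adjusted test. The list also holds plasma cell genes, Jchain among them. Cd79a, a part of the B cell receptor, measured 7.61, 7.34, 7.42 and 7.38 with air and 6.67 to 7.71, median 7.35, with ozone. Cd22, an inhibitory B cell receptor, measured 6.44, 6.23, 6.28 and 6.66 with air and 3.83 to 6.15, median 5.27, with ozone, without overlap. Its difference was -1.34 (adjusted p = 0.163 in limma), and -0.43 without ozone arrays 4, 5 and 6. In whole lobe RNA, fewer cells of a type and less RNA per cell cannot be told apart.

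**Figure D1:**
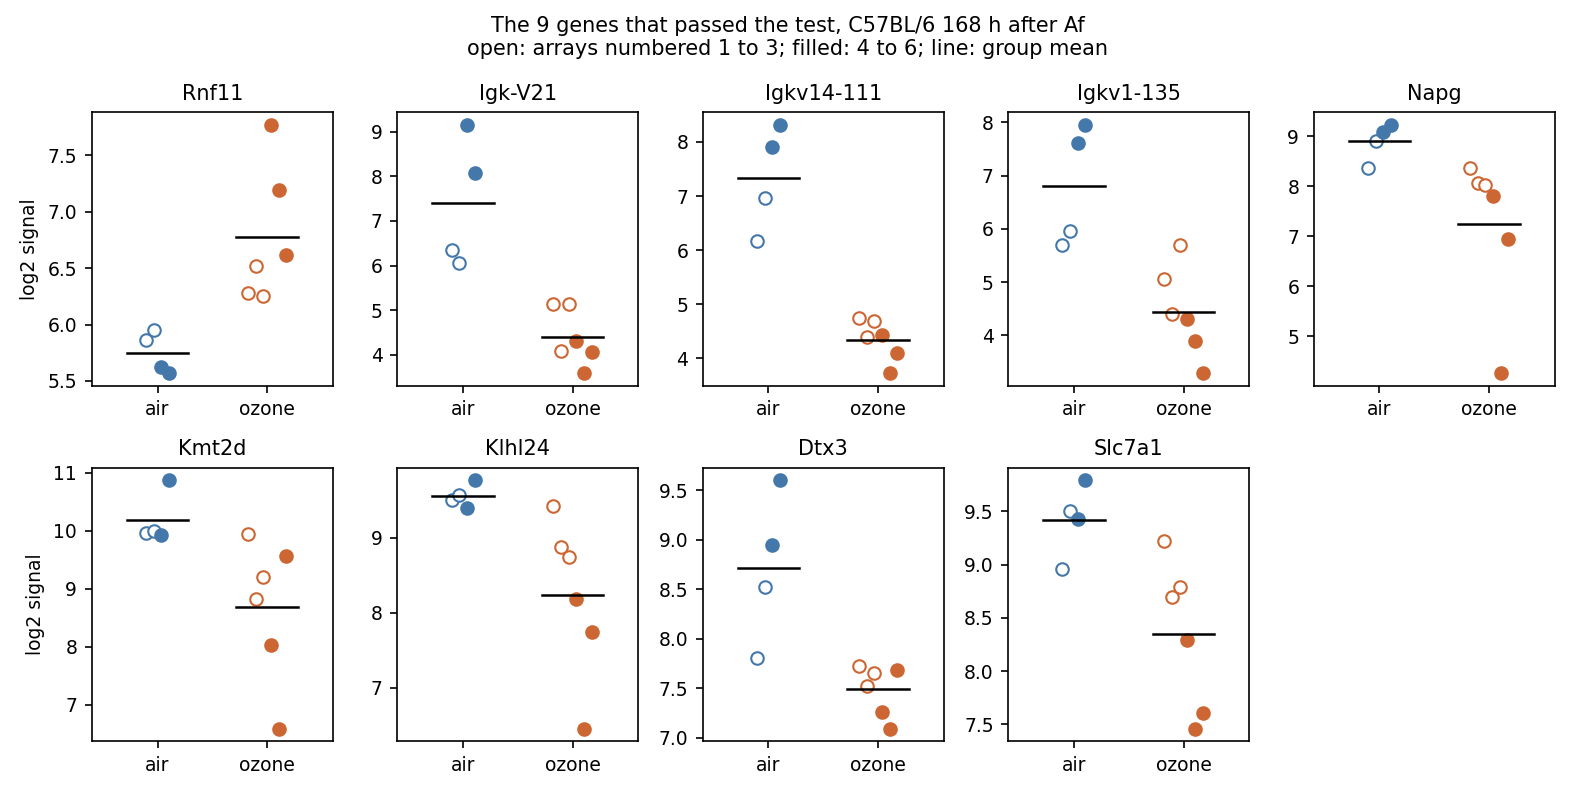
Log2 signal (y axis) of the 9 genes that passed the test, for each of 4 air and 6 ozone arrays of C57BL/6 mice 168 h after Af; open points are arrays numbered 1 to 3, filled points 4 to 6, and lines are group means. Rnf11 is higher on every ozone array; Igkv14-111, Igk-V21, Igkv1-135 and Dtx3 are lower on every one, and Napg has its lowest value, 4.26, on ozone array 5.

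The other 6 called genes have unlike roles. Rnf11, which encodes a RING finger protein of ubiquitin ligase complexes, measured 5.86, 5.95, 5.62 and 5.57 with air and 6.25 to 7.77, median 6.57, with ozone. It rose by 1.02 ± 0.22 (limma, adjusted p = 0.0236), and the groups did not overlap. Dtx3, of the Deltex ubiquitin ligases, measured 7.80, 8.52, 8.95 and 9.60 with air and 7.09 to 7.72, median 7.58, with ozone. It fell by 1.23 ± 0.24 on the log2 scale (limma, adjusted p = 0.0111) and also did not overlap. Without allergen, C57BL/6 lungs measured 7.51 ± 0.16 (SD, n = 6) for Dtx3 with air, which is near the level of the ozone group here.

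Kmt2d, a histone methyltransferase acting at enhancers, measured 9.97, 10, 9.92 and 10.87 with air and 6.59 to 9.94, median 9.02, with ozone. It fell by 1.5 ± 0.29 on the log2 scale (limma, adjusted p = 0.0111). Ozone array 1 lay within the air range and ozone array 5 was the lowest. Napg, a protein of vesicle fusion, measured 8.36, 8.91, 9.09 and 9.23 with air and 4.26 to 8.37, median 7.91, with ozone, and fell by 1.66 ± 0.35 on the log2 scale (limma, adjusted p = 0.0227).

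Klhl24, an adaptor of a cullin ubiquitin ligase, fell by 1.33 ± 0.28 and Slc7a1, a transporter of arginine and lysine, by 1.07 ± 0.24 on the log2 scale (limma, adjusted p = 0.0236 and 0.0443). For these 4 genes ozone array 5 was the lowest and each group overlapped with the other. Without ozone arrays 4, 5 and 6 the differences were -0.87 for Kmt2d, -0.75 for Napg, -0.55 for Klhl24 and -0.51 for Slc7a1. In that fit limma called Igkv14-111 alone, at -2.74 and an adjusted p of 0.00656, and the other 8 genes had an adjusted p of 1.

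Several genes next in order of p did not pass the test without pairing. With the number as a block, Mfsd4a rose by 1.38 (limma, adjusted p = 0.0406; range over the alternatives 0.000776 to 1), and Slc38a6 and Zbtb20 fell by 2.25 and 1.37 on the log2 scale (limma, adjusted p = 0.0326 and 0.031; ranges 0.00584 to 1 and 0.00457 to 1). The values that follow are without the block. Mfsd4a, a membrane transporter, differed by 1.23 ± 0.30 (limma, adjusted p = 0.11) and Fcamr, a receptor for IgA and IgM, by 0.86 ± 0.21 (limma, adjusted p = 0.11). Fcamr measured 4.09, 3.75, 4.09 and 3.61 with air and 4.25 to 5.31, median 4.77, with ozone, and neither gene overlapped between groups, as for 0.425% of all genes on the higher side. Their differences were 0.97 and 0.78 without ozone arrays 4, 5 and 6. Slc38a6, a transporter of the amino acid family, measured 7.63, 7.13 and 7.24 on ozone arrays 1 to 3 and 4.41, 4.18 and 4.43 on ozone arrays 4 to 6. Its difference was -2.21 (limma, adjusted p = 0.0652), and -0.72 without ozone arrays 4, 5 and 6. Zbtb20, a transcriptional repressor, differed by -1.27 (limma, adjusted p = 0.0586), and by -0.71 without them.

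Genes of airway mucus had the highest median among the lists examined with all 10 arrays. Over the 14 goblet and mucus genes tested the median difference was 0.89, against -0.03 over all genes, and 12 of 14 were above 0. Their mean log2 signal overlapped between groups. It was 6.25, 6.23, 8.41 and 6.17 on air arrays 2, 3, 4 and 6, 6.31 on ozone array 1 and 7.18 to 8.55 on the other ozone arrays. At an unadjusted p under 0.05, 4 of 14 were higher and 0 lower, and none passed the adjusted test. With the number as a block, 10 of 14 were higher at that threshold and none lower, where 5.72% of all genes were higher and 8.56% lower. In the set numbered 1 to 3 the count was 5 of 14, with 0.299% of all genes, and the median was 1.26. In the set numbered 4 to 6 it was 2 of 14, where 12.8% of all genes were higher, with a median of 0.82. Without ozone arrays 4, 5 and 6 it was also 2 of 14, with 1.2% of all genes, 9 of 14 were above 0, and the median was 0.61, below the 0.89 of the club and secretory list in that fit.

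Muc5b, the mucin made by airway secretory cells in the resting lung, measured 7.75, 6.23, 9.95 and 6.49 on air arrays 2, 3, 4 and 6. With ozone it ranged from 8.60 to 10.46 with a median of 9.88. Air array 4 lay within the ozone range and the other 3 air arrays below it. The difference was 2.09 ± 0.54 (limma, adjusted p = 0.129), and 2.46 with the number as a block, where Muc5b rose (limma, adjusted p = 0.0312; range over the alternatives 9.9e-07 to 1). It was 2.07 without ozone arrays 4, 5 and 6, and 2.69 in the set numbered 1 to 3.

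Agr2, a chaperone that folds mucins, measured 6.10, 4.62, 8.90 and 5.01 with air and 7.15 to 8.70, median 8.17, with ozone. Tff2, a small peptide secreted with mucus, measured 6.63, 5.68, 8.86 and 5.75 with air and 6.97 to 9.59, median 8.17, with ozone. For Agr2 and Tff2, air array 4 was the exception and the other air arrays lay below every ozone array. Their differences were 1.79 ± 0.61 and 1.47 ± 0.51 (limma, adjusted p = 0.194 and 0.196). Muc5ac, the mucin that allergens induce, showed a wider overlap, with 5.12, 4.61, 7.89 and 4.16 with air and 5.04 to 7.99, median 6.71, with ozone. Its difference was 1.03 (limma, adjusted p = 0.359). Pigr, the receptor that carries polymeric antibody across the epithelium, is no member of the list. It rose with the number as a block, by 1.85 (limma, adjusted p = 0.0326), and differed by 1.23 without it (limma, adjusted p = 0.222).

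Among 18 tested club and secretory cell genes the median difference was 0.15. The sign depended on the set. The median was 0.42 in the set numbered 1 to 3, with 17 of 18 above 0, beside 0.01 over all genes. It was -0.23 in the set numbered 4 to 6, with 7 of 18 above 0, beside -0.07 over all genes. The counts that follow are for all 10 arrays. At an unadjusted p under 0.05, 4 of 18 were higher and 0 lower, where 6.13% and 9.78% of all genes were, and none passed the adjusted test. Tspan1, a membrane protein of secretory epithelium, measured 7.30, 6.19, 7.04 and 5.86 with air and 6.79 to 8.76, median 8.17, with ozone, and differed by 1.41 ± 0.41 (limma, adjusted p = 0.159). Scgb3a1, a secretoglobin of the upper airways, measured 10.96, 7.95, 11.25 and 6.75 with air and 9.40 to 11.56, median 11.25, with ozone. Reg3g, an antibacterial lectin, measured 9.65, 5.76, 11.45 and 5.23 with air and 7.83 to 11.25, median 10.42, with ozone. For Scgb3a1 and Reg3g, air arrays 2 and 4 lay within or above the ozone range and air arrays 3 and 6 below it. The differences of Scgb3a1 and Reg3g were 1.76 and 2.11 (limma, adjusted p = 0.206 and 0.268). Without ozone arrays 4, 5 and 6 all 3 were as large: 1.57 for Tspan1, 1.98 for Scgb3a1 and 2.34 for Reg3g. Scgb1a1 differed by 0.09 (limma, adjusted p = 0.84). Without Af, C57BL/6 lungs with air measured 8.41 ± 0.16 (SD, n = 6) for Tspan1 and 10.54 ± 0.32 (SD, n = 6) for Scgb3a1. After Af the means of these 2 genes were 6.60 and 9.23 with air and 8.01 and 10.99 with ozone.

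Ciliated cell genes, which mark how much conducting airway a sample holds, varied between the same air arrays. Their mean log2 signal over 14 tested genes was 7.11, 6.52, 7.92 and 6.10 on air arrays 2, 3, 4 and 6, and 5.67 to 7.92 on the ozone arrays. Cfap126, named for its small p within this list, measured 8.00, 7.44, 9.35 and 7.16 with air and 7.61 to 9.09, median 8.44, with ozone. With all arrays, no ciliated gene reached an unadjusted p under 0.05 and their median difference was 0.09. With the number as a block the median was 0.45, 14 of 14 were above 0, and 1 was higher at that threshold. Without ozone arrays 4, 5 and 6 the median was 0.50, with 13 of 14 above 0 and 1 higher at that threshold. It was 0.72 in the set numbered 1 to 3, with 14 of 14 above 0. In the set numbered 4 to 6 it was -0.26, with 3 of 14 above 0. The part of airway content in the mucus and secretory differences was not tested.

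**Figure D2:**
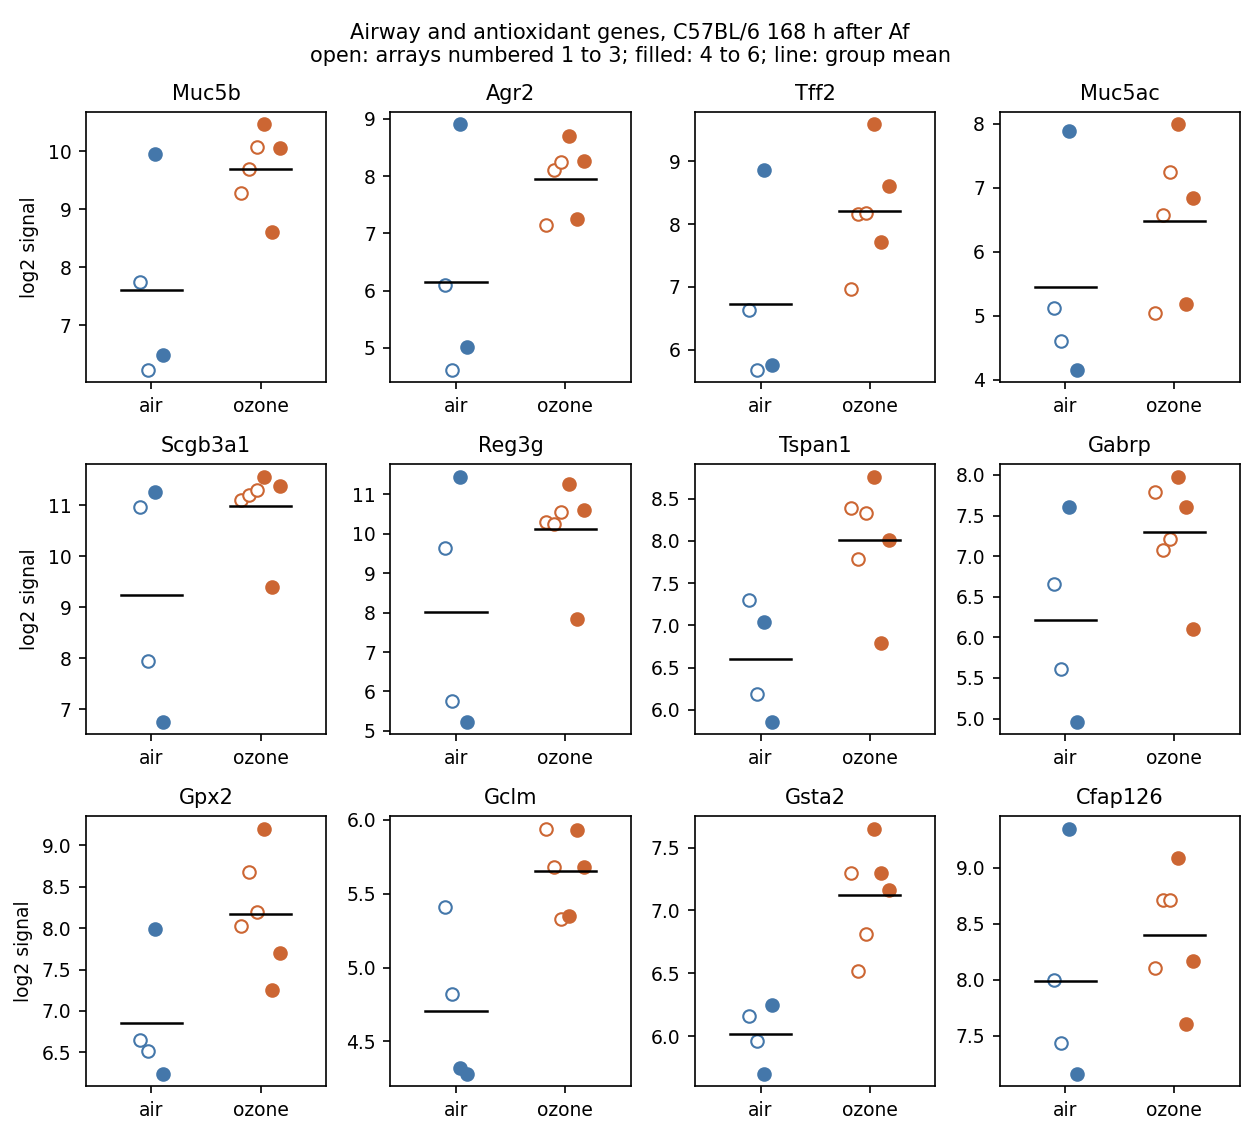
Log2 signal (y axis) of 8 airway secretory genes, the antioxidant genes Gpx2, Gclm and Gsta2, and the ciliated cell gene Cfap126, for 4 air and 6 ozone arrays; open points are arrays numbered 1 to 3, filled points 4 to 6, and lines are group means. In Muc5b, Agr2 and Tff2 air array 4, at 9.95, 8.90 and 8.86, stands with the ozone arrays while the other air arrays are lower.

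Of 18 tested NRF2 target genes, 3 were higher and 0 lower at an unadjusted p under 0.05, where 6.13% and 9.78% of all genes were, and none passed the adjusted test. The median difference was 0.10, and 0.44 without ozone arrays 4, 5 and 6, where 6 of 18 were higher and 1.2% of all genes were. It was 0.49 in the set numbered 1 to 3 and -0.40 in the set numbered 4 to 6. In the set numbered 1 to 3, 2 of 18 were higher and 0 lower at that threshold, with 0.299% and 0.166% of all genes. In the set numbered 4 to 6, 2 were higher and 4 lower, with 12.8% and 17.9% of all genes. There 1 gene of the list rose and 1 fell at an adjusted p under 0.05 in limma, where 3.51% and 7.44% of all genes did. Gpx2, a glutathione peroxidase of epithelia, measured 6.65, 6.52, 7.99 and 6.24 with air and 7.25 to 9.20, median 8.11, with ozone. It differed by 1.32 ± 0.36 (limma, adjusted p = 0.156), and rose by 1.59 with the number as a block (limma, adjusted p = 0.0312; range over the alternatives 4.03e-06 to 1). Its difference was 1.45 without ozone arrays 4, 5 and 6.

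Gclm, the modifier subunit of the first enzyme of glutathione synthesis, measured 5.41, 4.82, 4.32 and 4.28 with air and 5.33 to 5.94, median 5.68, with ozone. Air array 2 alone overlapped with the ozone arrays. It differed by 0.95 ± 0.30 (limma, adjusted p = 0.188) and by 0.95 without ozone arrays 4, 5 and 6. Gsta2, a glutathione transferase, did not overlap, with 6.16, 5.96, 5.70 and 6.25 with air and 6.52 to 7.65, median 7.23, with ozone (difference 1.11, limma, adjusted p = 0.221). Nqo1 and Hmox1, textbook targets of NRF2, showed no such order: the differences were 0.46 and -0.49 (limma, adjusted p = 0.595 and 0.325).

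NRF2 binds the antioxidant response element, searched here as TGACNNNGC on both strands in the 250 bases before each gene's start (RefSeq, GRCm38.p6). Of 32851 such windows, 10.2% held it. The windows of the 2 antioxidant genes with the smallest p are printed 5′ to 3′ on the gene's strand, with a match in capitals. They lie at chr12:76795555-76795804 (Gpx2, minus strand) and chr3:122245307-122245556 (Gclm, plus strand).
Gpx2: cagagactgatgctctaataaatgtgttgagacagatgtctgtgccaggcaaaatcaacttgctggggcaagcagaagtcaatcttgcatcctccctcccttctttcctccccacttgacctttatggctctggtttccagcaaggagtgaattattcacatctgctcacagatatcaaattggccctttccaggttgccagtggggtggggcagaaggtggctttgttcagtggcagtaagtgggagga
Gclm: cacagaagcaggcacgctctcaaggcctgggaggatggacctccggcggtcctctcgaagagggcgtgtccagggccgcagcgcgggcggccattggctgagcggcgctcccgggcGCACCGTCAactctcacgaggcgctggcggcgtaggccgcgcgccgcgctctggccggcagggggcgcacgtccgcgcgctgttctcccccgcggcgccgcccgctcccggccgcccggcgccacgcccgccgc
The Gclm window held 1 match, on the other strand, starting at position -134 from the gene's start. The Gpx2 window held none. A match is a description of these letters, not of a bound site.

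Macrophage genes had some of the lowest medians of any cell type examined. The median difference was -0.90 over 12 alveolar macrophage genes, -0.78 over 12 genes of alternatively activated macrophages and -0.58 over 22 lysosome genes, and no gene of these lists passed the adjusted test. At an unadjusted p under 0.05, 6 of 12, 5 of 12 and 9 of 22 were lower and 0 were higher, and 9.78% of all genes were lower. With the number as a block, 1 of 12, 2 of 12 and 3 of 22 were lower and 0, 1 and 0 higher, where 8.56% of all genes were lower and 5.72% higher. The lists overlap: Mrc1 and Chil3 are in the first pair, and Fabp4 and Atp6v0d2 in the alveolar macrophage and lysosome lists. In the set numbered 1 to 3 the medians were -0.39, -0.47 and -0.25, with no gene at that threshold. In the set numbered 4 to 6 they were -1.59, -1.16 and -0.90. Without ozone arrays 4, 5 and 6 the medians were -0.34, -0.59 and -0.35. In that fit 2 of 12, 1 of 12 and 5 of 22 were lower at that threshold, where 1.05% of all genes were. None were higher.

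Fabp4, a fatty acid carrier of alveolar macrophages and fat, measured 8.78, 7.85, 10.82 and 9.60 with air and 4.26 to 9.03, median 7.01, with ozone. It differed by -2.48 ± 0.72 (limma, adjusted p = 0.159) and by -2.02 without ozone arrays 4, 5 and 6. Adipoq, a marker of fat, was also uneven: 5.44, 2.34, 5.34 and 4.19 with air and 2.27 to 4.12, median 2.48, with ozone. Its part in the Fabp4 difference was not tested. Arg1, the arginine-consuming enzyme of alternatively activated macrophages, did not overlap, with 6.43, 7.09, 7.53 and 6.32 with air and 4.76 to 5.92, median 5.40, with ozone. It differed by -1.49 (limma, adjusted p = 0.244) and by -1.33 without ozone arrays 4, 5 and 6.

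Atp6v0d2, a proton pump subunit of alveolar macrophages, measured 6.81, 8.19, 8.40 and 7.60 with air and 4.17 to 7.25, median 6.70, with ozone, a difference of -1.41 (limma, adjusted p = 0.174). Mrc1, the mannose receptor, depended on single arrays. It measured 8.31, 8.70, 8.42 and 8.87 with air, and its ozone values spread from 3.38 to 8.45 with a median of 7.69. Ozone arrays 5 and 6 measured 3.38 and 4.29 and the other 4 lay between 7.44 and 8.45. The difference was -1.93, and -0.65 without ozone arrays 4, 5 and 6. Retnla, a secreted product of the same macrophage state, measured 11.23, 13.09, 12.80 and 11.92 with air and 11.31 to 13.32, median 12.72, with ozone, and differed by 0.25 (limma, adjusted p = 0.678).

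**Figure D3:**
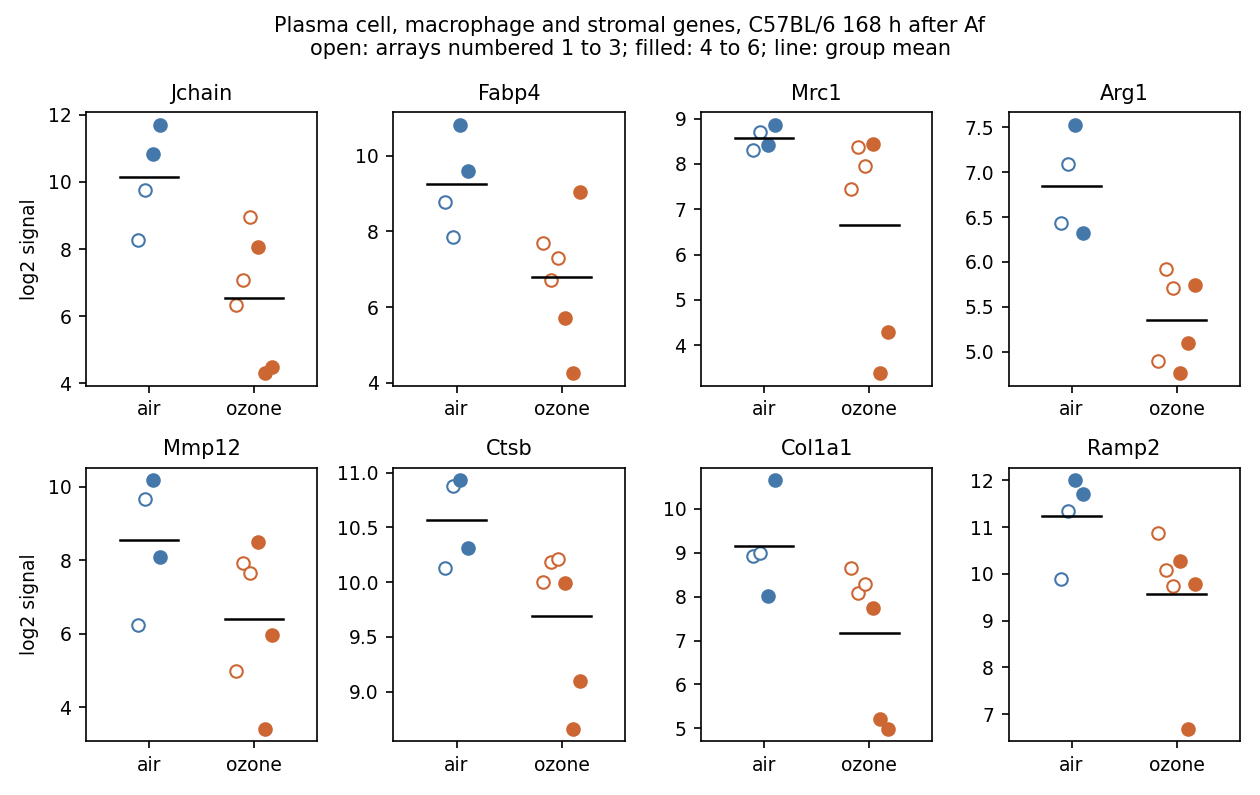
Log2 signal (y axis) of Jchain, 5 macrophage-related genes, the collagen chain Col1a1 and the endothelial gene Ramp2, for 4 air and 6 ozone arrays; open points are arrays numbered 1 to 3, filled points 4 to 6, and lines are group means. The lowest values are on filled ozone points, such as 3.38 for Mrc1 and 6.69 for Ramp2 on ozone array 5, while Arg1 lies at 5.92 or below on every ozone array.

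Structural and housekeeping gene groups were lower with ozone in the set numbered 4 to 6 and near 0 or less low in the set numbered 1 to 3. No gene of the collagen, endothelial, fibroblast, oxidative phosphorylation, proteasome or interferon lists passed the test with all 10 arrays. The median over 15 collagen chains was -0.73, with -0.32 in the set numbered 1 to 3 and -0.94 in the other. Col1a1, the main chain of type I collagen, measured 8.92, 8.99, 8.02 and 10.65 with air and 4.99 to 8.65, median 7.91, with ozone. Its difference was -1.99 ± 0.50 (limma, adjusted p = 0.114), and -0.80 without ozone arrays 4, 5 and 6.

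The endothelial median over 21 genes was -0.62 with all arrays, -0.38 in the set numbered 1 to 3 and -0.83 in the other. It was -0.55 with the number as a block. Without ozone arrays 4, 5 and 6 it was 0.13. That fit keeps air array 4, where the endothelial mean was 7.09, against 7.97 to 8.73 on the other air arrays. Tie1, a receptor of blood vessel lining cells, measured 8.78, 8.34, 6.46 and 8.82 with air and 3.65 to 8.27, median 6.11, with ozone, so air array 4 lay within the ozone range. The 17 fibroblast and smooth muscle genes had a median of -0.45, of -0.08 in the set numbered 1 to 3 and of 0.04 without ozone arrays 4, 5 and 6. In the same order the values were -0.38, 0.13 and 0.03 for the 27 oxidative phosphorylation genes. For the 16 interferon-stimulated genes they were -0.37, -0.06 and -0.04.

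Ndufs1, a subunit of the first respiratory complex, had values of 8.21, 7.97, 8.64 and 7.61 with air and 3.62 to 8.10, median 7.06, with ozone. Its difference of -1.47 (limma, adjusted p = 0.156) was -0.38 without ozone arrays 4, 5 and 6. Irgm1, an interferon-induced GTPase, differed by -1.54 with all arrays (limma, adjusted p = 0.244) and by 0.09 without them. The glucocorticoid-responsive genes had a median of -0.47 and of 0.10 without them. Among these, Tsc22d3, a glucocorticoid-induced regulator, fell with the number as a block by 1.79 on the log2 scale (limma, adjusted p = 0.0326; range 0.0318 to 1) and differed by -1.33 without it (limma, adjusted p = 0.19). Mylk, the smooth muscle myosin kinase, likewise fell with the block by 1.32 on the log2 scale (limma, adjusted p = 0.0273; range 0.0166 to 1), and differed by -0.96 without it and by -0.12 without ozone arrays 4, 5 and 6.

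**Figure D4:**
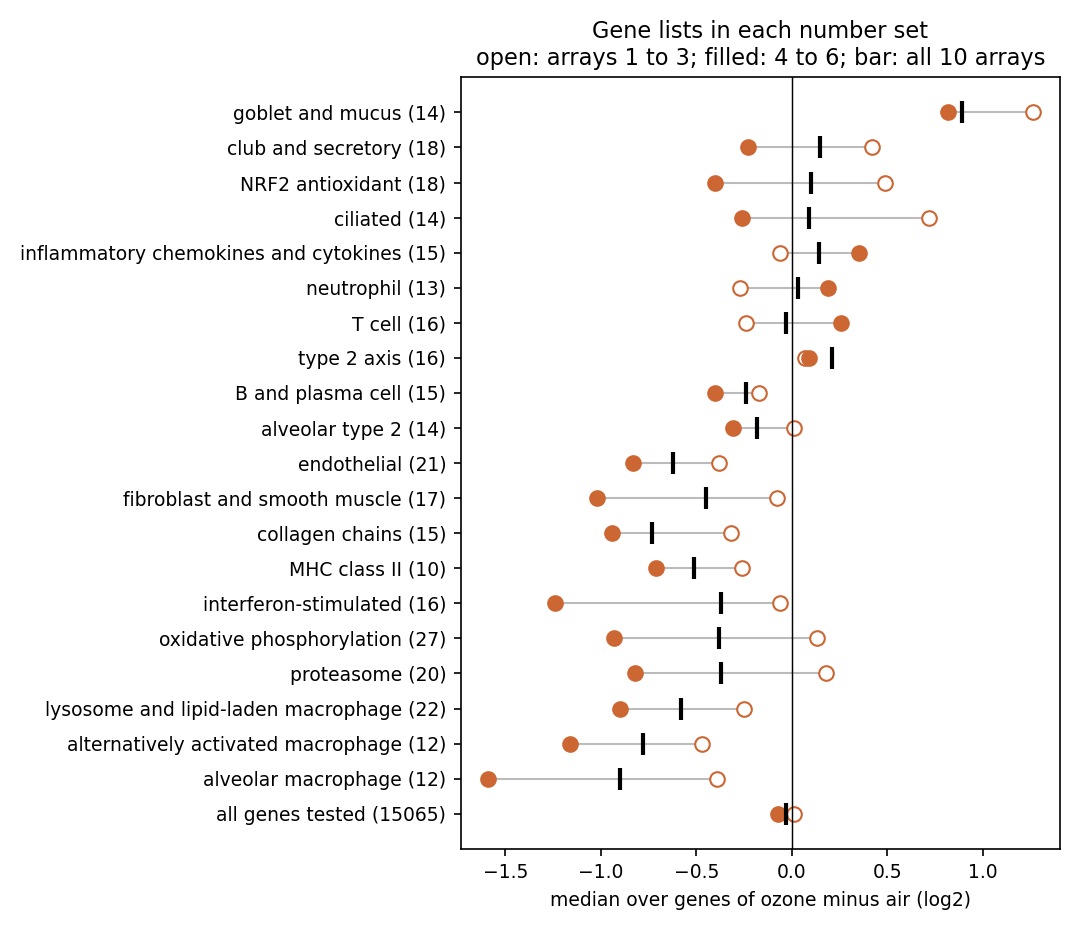
Median over genes of the ozone minus air difference (x axis, log2) for 20 gene lists and all genes tested, with the number of genes in brackets; open points use arrays numbered 1 to 3, filled points 4 to 6, and bars all 10 arrays. The goblet and mucus median is above 0 in both sets (1.26 and 0.82), and the macrophage medians are below 0 in both, while the medians for oxidative phosphorylation (0.13 and -0.93) and proteasome genes (0.18 and -0.82) differ in sign.

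Inflammatory chemokines and cytokines, which recruit leukocytes, showed no member past the unadjusted threshold with all 10 arrays. Among 15 tested genes of this list the median difference was 0.14, with 0 higher and 0 lower at an unadjusted p under 0.05. Ccl2, which draws monocytes, measured 5.30, 5.34, 5.25 and 5.66 with air and 5.53 to 6.92, median 5.68, with ozone (difference 0.49, limma, adjusted p = 0.465). Ccl20, which draws dendritic cells, differed by 0.47 (limma, adjusted p = 0.366) and by -0.08 without ozone arrays 4, 5 and 6. In the set numbered 4 to 6 it rose by 1.13 (limma, adjusted p = 0.0402), and in the set numbered 1 to 3 it differed by -0.18. The list's medians were 0.35 and -0.06 in those sets. Among 13 neutrophil genes the median was 0.03 and 2 were higher at an unadjusted p under 0.05, where 6.13% of all genes were. These were Camp, a granule peptide (0.62), and Trem1, an activating receptor (0.76), with adjusted p of 0.254 and 0.257 in limma.

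Genes of the allergic type 2 response had a median of 0.21 over 16 tested, with 2 higher and 2 lower at an unadjusted p under 0.05, where 6.13% and 9.78% of all genes were. Ccl17, a chemokine that draws type 2 T cells, measured 7.31, 7.61, 7.18 and 6.70 with air and 7.47 to 8.40, median 7.97, with ozone. It differed by 0.75 (limma, adjusted p = 0.221) and by 0.90 without ozone arrays 4, 5 and 6. Il13, the cytokine that drives goblet cells, differed by 0.34 (limma, adjusted p = 0.505), and by -0.35 without those arrays. Hba-a1, an alpha globin of red blood cells, measured 11.04, 7.75, 8.85 and 10.45 with air and 10.84 to 12.13, median 11.11, with ozone, a difference of 1.79 (limma, adjusted p = 0.225).

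Saa3, an acute phase protein made by lung epithelium and macrophages, separated the ozone response of these mice from that of mice without Af. With Af it measured 8.45, 8.60, 8.65 and 10.79 with air and 6.31 to 9.39, median 8.03, with ozone, a difference of -1.16 ± 0.56 (limma, adjusted p = 0.3). This difference depended on the set: it was 0.18 in the set numbered 1 to 3, -2.50 in the set numbered 4 to 6 (limma, adjusted p = 0.0283) and -0.42 without ozone arrays 4, 5 and 6. Without Af it measured 4.98 ± 0.79 (SD, n = 6) with air and 8.06 ± 0.88 (SD, n = 6) with ozone, and rose by 3.07 ± 0.50 (limma, adjusted p = 0.000295). The difference between the responses was -4.23 ± 0.75 (limma, adjusted p = 0.0019), and the 4 groups share no array. All 4 air arrays after Af lay above the mean that ozone reached without Af. Leaving out air array 6, which stood at 10.79, gave -3.68 (limma, adjusted p = 0.0606), and leaving out ozone arrays 4, 5 and 6 gave -3.49 (limma, adjusted p = 0.357). Over all alternatives the difference between responses lay between -4.52 and -3.27 and its adjusted p between 0.000117 and 0.357.

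Its window of 250 bases before the gene's start is shown because this gene carries the contrast between the responses (RefSeq, GRCm38.p6, chr7:46715677-46715926, minus strand, printed 5′ to 3′).
Saa3: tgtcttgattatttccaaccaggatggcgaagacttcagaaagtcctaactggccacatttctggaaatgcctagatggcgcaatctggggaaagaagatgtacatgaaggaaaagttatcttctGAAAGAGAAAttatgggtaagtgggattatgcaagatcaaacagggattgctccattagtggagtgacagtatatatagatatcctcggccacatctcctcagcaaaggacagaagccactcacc
The capitals mark a match to an interferon response motif searched as GAAA, any 2 bases and GAAA on both strands, which 2.98% of all windows held. The window also held 1 match, not in capitals, to the D-box motif. That motif was searched as TTATG, any base and AA, and 3.07% of all windows held it. The NF-kB motif searched as GGGA, any 4 bases and CC, which 17.6% of all windows held, was not in this window.

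Igkv14-111 was the other gene whose ozone response differed from that without Af, and these 2 genes are 0.0133% of those tested; at an unadjusted p under 0.05 there were 822 (5.46%). Without Af it measured 4.78 ± 0.52 (SD, n = 6) with air and 5.14 ± 1.02 (SD, n = 6) with ozone. The difference between the responses was -3.35 ± 0.55 (limma, adjusted p = 0.000774), and -3.10 without ozone arrays 4, 5 and 6 (limma, adjusted p = 0.0543). Over all alternatives its adjusted p ran from 9.33e-05 to 0.128. After Af the air mean lay above those means, at 7.34 ± 0.96 (SD, n = 4), and the ozone mean did not, at 4.35 ± 0.38 (SD, n = 6). Single arrays overlapped: ozone array 4 without Af was at 6.93 and air array 2 after Af at 6.17. Ozone without Af raised 4 genes in all (0.0266%): Saa3, Retnla, Timp1 and Krt7. For Retnla the response was 1.71 there and 0.25 here, for Timp1, an inhibitor of matrix proteases, 2.99 and 0.12, and for Krt7, a keratin of simple epithelia, 1.30 and 0.29. The difference between responses had an adjusted p of 0.724 in limma for each of these 3. The Timp1 value here averages opposite signs: the difference was 1.71 in the set numbered 1 to 3, -1.48 in the set numbered 4 to 6 and 1.41 without ozone arrays 4, 5 and 6. Timp1 after Af measured between 5.13 and 9.0 on the ozone arrays, which was wider than the 8.26 to 9.32 without Af.

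Against SP-D-/- mice under the same exposures, the response differed for 6 genes (0.0398%), and for 925 (6.14%) at an unadjusted p under 0.05. Igkv14-111 was one of them: it measured 4.44 ± 0.60 (SD, n = 5) with air and 4.49 ± 0.95 (SD, n = 4) with ozone in SP-D-/- lungs. The difference between responses was -3.04 ± 0.60 (limma, adjusted p = 0.00908). Its adjusted p was 0.128 without air array 6, 0.07 without air array 4 and 0.123 without ozone arrays 4, 5 and 6, and ran from 0.00163 to 0.227 over all alternatives. Efcab10, an EF-hand protein gene, differed by 1.03 here and by -1.32 in SP-D-/- mice (limma, adjusted p of the difference between responses = 0.00607; 0.0706 without air array 6; range 0.000291 to 0.516). Tmem35a, a chaperone of acetylcholine receptors, differed by 1.29 and by -1.35 (limma, adjusted p = 0.00607). That adjusted p was 0.067 with the number as a block and 0.0706 without air array 6, in a range of 0.00101 to 0.432. Atp6v1b1, a proton pump subunit, differed by 0.34 and by -1.83 (limma, adjusted p = 0.0282). Its call was lost on leaving out any of air arrays 4 and 6 and ozone arrays 3 and 4 here or SP-D-/- air arrays 2, 4, 5 and 6 and ozone array 3, and its adjusted p ran from 9.28e-05 to 1. AU021092, a gene with no assigned function, differed by 0.68 and by -1.5 (limma, adjusted p = 0.00607; range 0.000642 to 0.523).

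Car3, a carbonic anhydrase abundant in fat and muscle, showed the widest gap between strains. It measured 7.98, 4.10, 9.20 and 8.61 with air and 4.20 to 7.29 with ozone here. In SP-D-/- lungs the 4 ozone arrays lay between 9.33 and 10.53 and the 5 air arrays between 4.31 and 7.88. The difference between responses was -5.75 ± 1.22 (limma, adjusted p = 0.0282), and -1.76 when all probe sets of the gene were averaged (limma, adjusted p = 0.846). Over all alternatives it lay between -6.88 and -1.76, with an adjusted p of 0.00374 to 0.846. The fat list here averaged 4.10 to 5.58 on the air arrays and 4.14 to 4.65 on the ozone arrays, and its part in the Car3 values was not tested.

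Against BALB/c mice under the same exposures limma called no difference between responses, with 1171 genes (7.77%) at an unadjusted p under 0.05 and 13 genes called with the number as a block. One of the 4 BALB/c ozone arrays, number 6, went against its label: Sftpd, the gene of surfactant protein D, was at 5.59 there and at 10.92 to 11.01 on the other 3. Without the arrays with doubted labels limma again called none, with 2525 genes at an unadjusted p under 0.05. Igkv14-111 measured 5.72 ± 0.53 (SD, n = 6) with air and 4.60 ± 0.70 (SD, n = 4) on the ozone arrays labelled BALB/c, a difference of -1.12 (limma, adjusted p = 0.373). Without array 6 the ozone mean was 4.83 ± 0.64 (SD, n = 3), and without all doubted arrays the difference was -0.89 (limma, adjusted p = 0.562). Igk-V21 and Igkv1-135 differed by -1.39 and -1.11 there (limma, adjusted p = 0.558 and 0.535), and by -0.92 and -0.66 without the doubted arrays (limma, adjusted p = 0.7 and 0.718). Gpx2 differed by 1.71 on the arrays labelled BALB/c (limma, adjusted p = 0.0462), beside 1.32 here, and by 1.84 without the doubted arrays, where it did not pass the test (limma, adjusted p = 0.0932). Gclm differed by 1.31 there (limma, adjusted p = 0.139) and by 1.18 without them (limma, adjusted p = 0.227). For the 3 kappa genes the difference between the C57BL/6 and BALB/c responses had an adjusted p of 0.622 in limma, and of 0.29 without the doubted arrays.

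**Figure D5:**
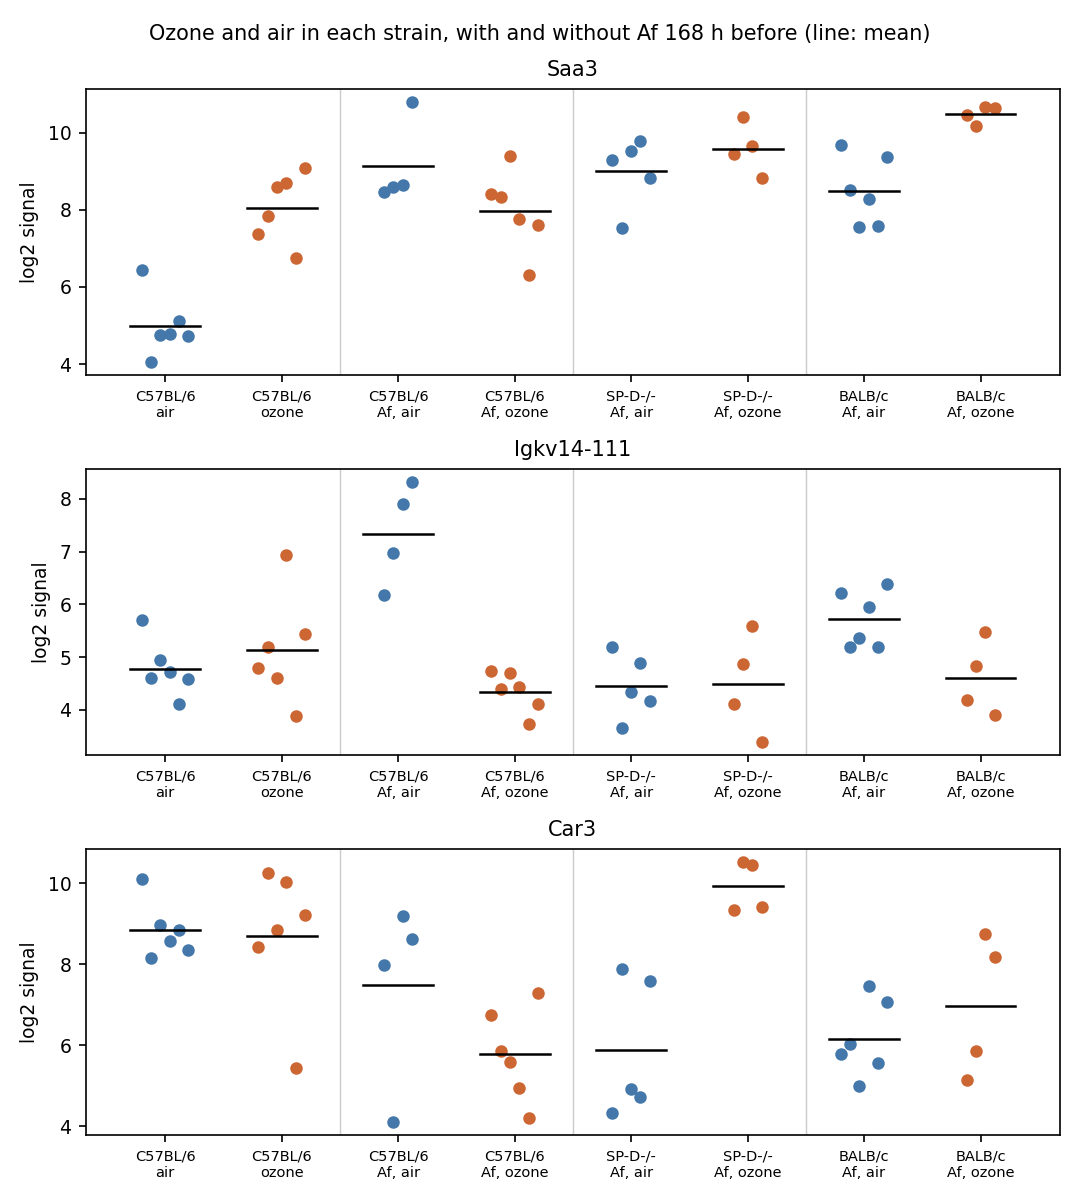
Log2 signal (y axis) of Saa3, Igkv14-111 and Car3 on each array of 8 groups: air (blue) and ozone (orange) in C57BL/6 without Af and, 168 h after Af, in C57BL/6, SP-D-/- and BALB/c mice as labelled (1 BALB/c ozone array has a doubted label), with lines at group means. Saa3 is low only with air and no Af (mean 4.98), and Igkv14-111 has its highest mean, 7.34, in C57BL/6 after Af with air.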

How the data were processed

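Lung RNA was amplified with a NuGEN kit and hybridized to GeneChip HT Mouse430PM arrays, per the labels' protocols. The values are the log2 signals the authors deposited for 45141 probe sets on 89 arrays. Their distribution is the same on every array. The software and its settings are not given in the sources used here, and log2 is read from the range of 1.86 to 13.54. A probe set was named through the platform annotation where that gave 1 gene (28898 probe sets; 551 gave several and 15588 none), and the probe set with the highest mean stood for a gene. Of 17097 genes, 15065 exceeded 4.45, the 40th percentile of all values, on at least 4 arrays and were tested. limma 3.58.1 in R 4.3.3 fitted 1 mean per group over all 89 arrays and 18 groups, so the groups share 1 estimate of the spread. Benjamini-Hochberg adjustment ran over all genes tested and a gene was called at an adjusted p under 0.05. On data simulated for this comparison over 15065 genes the fit recovered 34% of changes of 1 log2 unit and 84% of 2, with 8 false calls. The simulated noise was independent between arrays and had 1 spread per gene in all groups. It holds neither the likeness of arrays within number sets nor their differences in quality. These rates therefore need not hold for the real arrays. Differences are log2, ozone minus air.

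Members and gene lists were chosen with earlier results of these data known. Named genes are the called genes of each direction, filled up to 15 by smallest p (gene models and clone names passed over), for each list its 3 called genes of largest change or else the 2 with the smallest p, and the 5 of smallest p in each difference between responses. Others named were chosen after their values were seen. The 4 air and ozone arrays of equal number deviated together (r = 0.262 to 0.407), so the number was treated as pairing them, though no air array correlated best with its own number. Air and ozone arrays of unlike number within a set correlated at 0.101 to 0.587. These correlations therefore do not tell pairing by number apart from the number set. The labels do not say that arrays are separate animals, so p-values measure the spread between arrays, and the number of arrays limits the precision. Labels of 5 other arrays of the series are doubted from strain marker genes or from Sftpd, none of the 10 here and 1 of them in the BALB/c ozone group. Sftpd below 9 in a wild-type mouse or above 8 in an SP-D-/- mouse counted as doubt. Ozone array 5 here, at 9.20, lay just above that limit. Alternatives were cyclic loess, other filters, the mean of all probe sets, array weights, spike level and actin difference as covariates, the number as a block, and leaving out arrays. Promoter windows of 90 of the 125 named genes were found.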

Additional observations from a re-analysis of the deposited data

Results flagged for a closer look

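In groups of 4 to 10 arrays, a single array was set apart from its group in 19 of 254 tests of quality values and named genes, where chance sets apart about 1 in 20. On air array 6 the actin difference (3′ minus 5′ signal) was 3.22, against 2.27 to 2.41 on the other air arrays, Kmt2d was at 10.87, Saa3 at 10.79 and Hsp90b1 at 10.89, each the highest of its group. On air array 4 Ccl20 was at 4.14, Kit at 5.99 and Irf8 at 6.6, the lowest of the group, and Hk2 at 7.98, the highest. Smad1 was lowest on air array 2 at 7.51 and H2-Eb1 highest on air array 3 at 10.69. On ozone array 5 the lowest values of the group were Napg at 4.26, Abca3 at 8.28, Cox5b at 8.6, Scgb3a1 at 9.4 and Ramp2 at 6.69, and the highest were Ccl2 at 6.92 and Calb2 at 5.58. Pfkp was lowest on ozone array 6 at 5.84 and Adipoq highest on ozone array 1 at 4.12.

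The ozone response after Af differed from that without Af for Igkv14-111 (-3.35) and Saa3 (-4.23). It differed from that of SP-D-/- mice for Igkv14-111 (-3.04), Car3 (-5.75), AU021092 (2.19), Atp6v1b1 (2.16), Efcab10 (2.36) and Tmem35a (2.64). Each was tested as the difference itself in limma.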

How the results depend on the processing

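Counts of genes that rose and fell were 1 and 8 with all 10 arrays. They were 0 and 3 with cyclic loess, 1 and 3 with the mean of all probe sets, 0 and 0 when only the 2 groups were fitted (554 genes at an unadjusted p under 0.05 in limma), and 409 and 451 with array weights. With spike level as a covariate they were 1 and 4 (also with the 10 probe sets below the ceiling), without the arrays with doubted labels 1 and 15, with both changes 3 and 11, and with the actin difference too 3 and 5. The replicate number as a fixed block gave 17 and 35, with spike level 23 and 23, and as a random block, fitted to only the 2 groups, 0 and 1; all 9 called genes stayed called under the fixed block. Of alternatives chosen after seeing the data, leaving out ozone arrays 4, 5 and 6 gave 0 and 1, the number set as a covariate 2 and 24, arrays 1 to 3 alone 0 and 0, and arrays 4 to 6 alone 529 and 1121. Leaving out 1 array gave 0 to 141 that rose and 1 to 338 that fell: without ozone array 1 the counts were 141 and 338, and without air array 6 or ozone array 5 they were 0 and 1. Genes whose response differed from that without Af numbered 2, but 0 when only the groups compared were fitted or without ozone arrays 4, 5 and 6, 380 with array weights, and 1 to 3 with 1 array left out. Against SP-D-/- mice the 6 became 103 with array weights, 10 with spike level and no doubted arrays (10 with the actin difference too), 3 with the block, 2 without ozone arrays 4, 5 and 6, and 0 to 16 with 1 array left out. Against BALB/c mice the 0 became 29 with array weights and 13 with the block, and stayed 0 with 1 array left out. Spike level differed by 0.41 to 0.85 and the actin difference by 0.01 to 0.57 with 1 array left out.

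Of 125 named genes, 25 changed direction at least once outside the fits of single number sets. In the set numbered 1 to 3, 11 had the other sign, of which Saa3 (0.18) and Cma1 (-0.01) are not among the 25, and in the set numbered 4 to 6 none did. With array weights these were Ccl20 (-0.10), Postn (0.02), Rps6 (0.01), Psmd12 (0.03), Ptgis (0.11), Krt6a (-0.08), Siglecf (0.08), Hspb7 (0.40), Actc1 (0.68), Eno3 (0.03), Fgb (-0.02) and Car3 (0.69). Without ozone arrays 4, 5 and 6 they were Ccl20 (-0.08), Postn (0.33), Irgm1 (0.09), Clock (0.10), Mvk (-0.03), Abca3 (0.04), Rps6 (0.09), Psmd12 (0.21), Col4a2 (0.18), Ptgis (0.34), Krt13 (-0.21), Krt6a (-0.15), Siglecf (0.18), Irf8 (0.07), Gzmk (-0.10), Cav1 (0.10), Trp63 (-0.42), Krt5 (-0.13), Actc1 (0.18) and Fgb (-0.16). With the mean of probe sets they were Abca3 (0.05), Rps6 (0.12), Lipe (0.12) and Car3 (0.68), with block and spike level Lipe (0.09), and without ozone array 4 Atp6v1b1 (-0.02, and up to 0.60 with another array left out). The cause was not tested.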
